A study of Mus musculus with 12 samples.

Results

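Deadenylases are the enzymes that shorten the poly(A) tail of an mRNA, and the 10 genes described here encode deadenylases and proteins that work with them: Cnot1, Cnot3, Cnot6, Cnot7, Cnot8, Pan2, Pan3, Parn, Btg1 and Tob1. They were chosen by symbol, and their reads were taken from a table of single RNA molecules wherever the poly(A) call had passed quality control and the transcript was of the mRNA class. All 10 genes had reads, out of 14042 genes with reads, and they held 2543 of 4274320 reads (0.0595%). The reads came from P19 cells, a wild-type mouse embryonal carcinoma line, sequenced as native poly(A)-selected RNA before differentiation (D0) and at D2, D4 and D6 of culture with retinoic acid in a neural medium, with 3 biological replicates per day and 12 libraries in all. Cells at D0 grew in serum without retinoic acid, so that medium, retinoic acid and time changed together and cannot be told apart. P19 is a single transformed line, and no animals were used.

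The poly(A) tail protects an mRNA and binds poly(A)-binding protein, and its removal is usually the step that commits the mRNA to decay. PAN2-PAN3 is thought to trim long tails first, and the CCR4-NOT complex, built on the scaffold CNOT1, removes the rest with the paired nucleases CNOT6 or CNOT6L and CNOT7 or CNOT8. PARN is a separate nuclease best known for trimming the tails of small non-coding RNAs, and BTG and TOB proteins are antiproliferative factors that bind CNOT7 or CNOT8 and recruit or stimulate the complex.

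Kept reads per library ranged from 120326 (D2 replicate 1) to 613756 (D0 replicate 2), and the 3 libraries of D2 were the shallowest of the 12. Each of 13 sequencing runs held libraries of 1 day, so run and day cannot be told apart. The names of the D0 runs carry the mark D2 beside the word undifferentiated, and the libraries were grouped by their labels. Of 8 pluripotency markers, 6 had reads (Zfp42 and Dppa5a were at 0), and their summed level was 1959 to 2239 CPM at D0, 57.0 to 73.4 at D2 and at most 8.30 at D6, with all 5 that could be tested lower at D6. All 10 neuronal markers and all 7 neural progenitor markers were higher at D6 than at D0 (summed levels of 2987 to 3238 against 563 to 582 CPM, and 924 to 996 against 65.1 to 98.4 CPM). Glial markers summed to at most 39.2 CPM in any library (Aqp4 and S100b at 0), and those of muscle, endoderm and fibroblasts to at most 10.5, 8.14 and 10.9 CPM (Myh6, Myh7, Tnnt2, Sox17, Gata4, Afp, Col3a1 and Lum at 0). The median aligned length per library was 649 to 729 nt at D0 and 747 to 829 nt at D6, and its part in the results below was not tested.

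Levels are given as CPM, the reads of a gene scaled to a common library size. A direct RNA read starts at the poly(A) tail and 1 read stands for 1 molecule, so CPM compares genes without division by length. Abundance was tested in 9309 genes with limma-voom, and a gene was called at an adjusted p (Benjamini-Hochberg over all genes tested) of at most 0.05. Of the 10 genes 9 were tested, and Pan3 had too few reads. At D6, 3 of the 9 were called (2 higher and 1 lower), against 37.8% of all genes tested (19% higher and 18.8% lower). At D4, 4 were called (3 higher and 1 lower), against 25.4% (12.9% and 12.5%). At D2, 2 were called (1 in each direction), against 10.8% (4.69% and 6.11%). The median log2 change of the 9 genes was 0.36 at D6, 0.24 at D4 and 0.41 at D2, beside a median over all genes tested of -0.04 at D2 and within 0.01 of 0 at the later days.

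**Figure D1:**
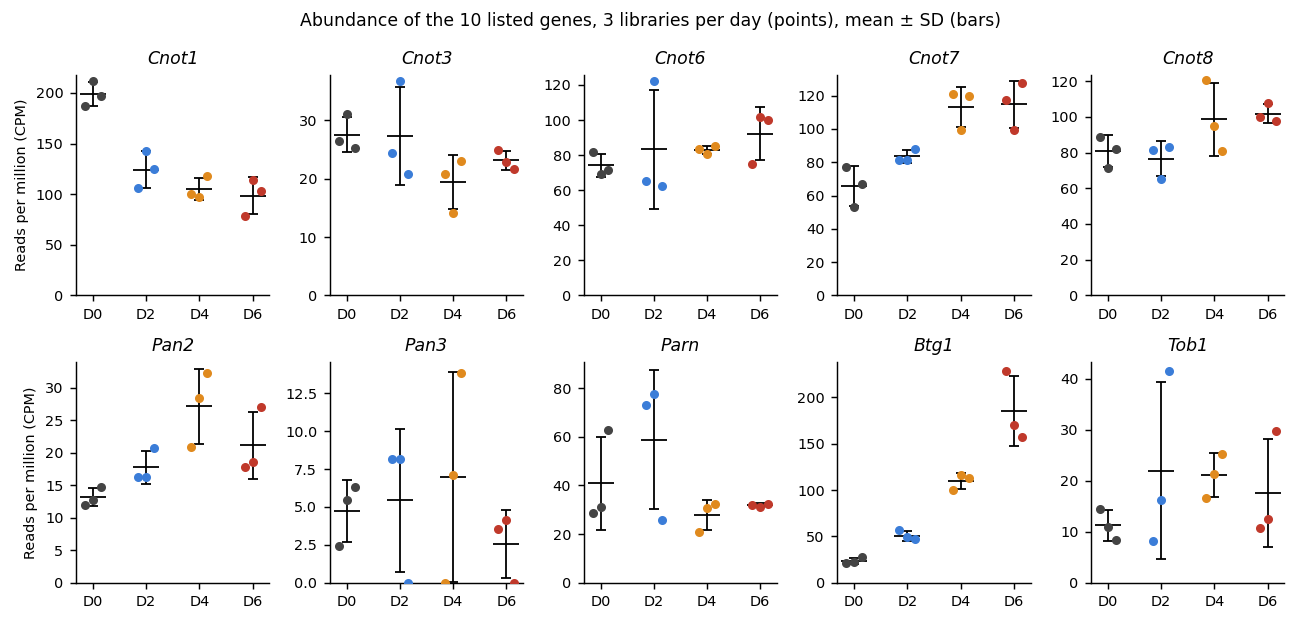
Level of each of the 10 genes in CPM (vertical axis from 0, scaled per gene) by day of differentiation. Points are the 3 libraries of a day, and bars the mean ± SD. Cnot1 falls from a mean of 199 CPM at D0 to 98.5 at D6 while Btg1 rises from 23.6 to 185.

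Cnot1, the scaffold on which the CCR4-NOT complex assembles, was the most abundant of the 10 genes at D0 and fell on differentiation. Its level was 188, 211 and 197 CPM in the 3 libraries of D0, 106, 143 and 124 at D2, 100, 97.0 and 117 at D4, and 78.3, 114 and 103 at D6 (replicates 1 to 3). Every later library lay below every library of D0. The log2 fold change against D0 was -0.91 (SE 0.18, adjusted p = 4.02e-05, limma-voom) at D4 and -0.98 (SE 0.18, adjusted p = 6.76e-06) at D6, a level 0.506 times that of D0. In these bulk libraries, fewer cells that express a gene and less RNA per cell cannot be told apart. The fall at D2 (-0.63, SE 0.20, adjusted p = 0.0339) was past the threshold in the full set but not without D0 replicate 1, 2 or 3, D2 replicate 1, 2 or 3, D4 replicate 1 or 2 or D6 replicate 2 or 3 (adjusted p from 0.0534 to 0.148), nor with total reads (0.148) or median-of-ratios scaling (0.0534). The gene has 5 annotated transcripts with reads, and 4.40% of its reads had a mapping quality of 10 or more. The cause of the low mapping quality was not tested, and only the sum over transcripts is given.

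The 3′ ends of Cnot1 reads gathered at 2 places on mouse chromosome 8 (minus strand, mm10 build), 251 and 777 bases after the stop codon. The nearer end, at position 95720156, held 535 of 591 reads, and the farther end, at 95719630, held 52. The share of the farther end was 8.97%, 6.96% and 7.45% in the libraries of D0 and 18.2%, 14.8% and 18.4% at D6, without overlap, a mean of 7.79% ± 1.05 against 17.1% ± 2.02 (SD, n = 3, two-sided exact permutation p = 0.1, the smallest that 3 against 3 libraries allow). At D2 and D4 it was 6.07% ± 6.26 and 4.61% ± 4.90 and overlapped D0. The reads behind it were few, 22 at D0 and 19 at D6. The last 30 bases before each end are shown because they carry the signal that is read by the cleavage machinery, with the hexamer in capitals (bases from the reference transcripts, chr8:95720156-95720185 and chr8:95719630-95719659, both minus strand).
Cnot1 nearer end: tgaacttgtgtaAATATAtgaaagagaaaa
Cnot1 farther end: agacggtaaacATTAAAgtcatgacatgca
The canonical hexamer AATAAA stood 10 to 40 bases before the most used end of 69.6% of 12172 transcripts with at least 30 reads, ATTAAA in 18.5% and AATATA in 3.57% (on the transcript strand, 1 transcript being able to hold several, with AGTAAA and TATAAA searched as well). A match is a description of the letters and not proof of use.

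Cnot3, a CCR4-NOT subunit of the module that binds CNOT2, had 103 reads. Its level was 25.2 to 31.0 CPM at D0, 20.7 to 36.7 at D2, 14.2 to 23.0 at D4 and 21.7 to 24.9 by D6. It was not called at any day, with log2 changes of 0.08 (SE 0.41), -0.51 (SE 0.37) and -0.24 (SE 0.35) at D2, D4 and D6, although its libraries of D4 and D6 lay below those of D0, and its reads ended at 1 place (102 of 103 reads, 274 bases after the stop codon). These changes were not stable, being -0.12 at D2 without D2 replicate 2, -0.28 at D4 without D4 replicate 2 and -0.13 at D6 without D0 replicate 2. They were -1.20 at D4 in libraries thinned to the smallest, and -0.78 at D2 and 0.10 at D6 with protein-coding transcripts only. Of these reads, 47.6% were assigned to the main coding transcript and 29.1% and 21.4% to transcripts annotated as retaining an intron, at a mapping quality that rarely separated them (7.77% of reads at 10 or more).

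Cnot6 encodes a nuclease of the exonuclease-endonuclease-phosphatase family that is a catalytic subunit of the complex. It was not called in level at any day in the reported fit, while the shares of its 3′ ends differed between D0 and later days. Its level was 81.7, 69.3 and 71.4 CPM at D0, 65.1, 122 and 62.2 at D2, 83.4, 80.4 and 85.2 at D4, and 74.8, 102 and 100.3 by D6. The ranges of D0 and D6 overlapped, and the log2 change at D6 was 0.35 (SE 0.21, adjusted p = 0.203). With total reads as the only scaling, which moved the median of all genes by 0.26 at D6, Cnot6 passed the threshold at D6.

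Reads of Cnot6 came almost all (353 of 354) from 1 annotated transcript, with 98.9% of reads at a mapping quality of 10 or more, and they gathered at 4 ends on chromosome 11 (minus strand), 1437, 1697, 2663 and 3690 bases after the stop codon. The end at position 49673496 (the middle end, 1697 bases after the stop codon) held 64.3%, 62.2% and 59.4% of the reads in the libraries of D0, 14.3%, 48.1% and 9.09% at D2, 22.2%, 27.3% and 32.4% at D4, and 23.8%, 32.6% and 19.4% at D6. The end at position 49671503 (the last end), which is the annotated end of the transcript, held 17.9%, 24.3% and 18.8% at D0, 71.4%, 44.4% and 72.7% at D2, 50%, 45.5% and 44.1% at D4, and 52.4%, 47.8% and 58.3% by D6. All 9 libraries of differentiating cells lay below D0 in the middle end and above it in the last end. The mean share of the last end was 20.3% ± 3.51 at D0, 62.9% ± 15.97 at D2, 46.5% ± 3.08 at D4 and 52.8% ± 5.27 by D6, and that of the middle end 61.9% ± 2.46 at D0 and 25.3% ± 6.71 at D6 (SD, n = 3, p = 0.1 in the two-sided exact permutation test at every day and for both ends, the smallest possible). The difference of the last end between D6 and D0, 32.5 percentage points, ranged from 29.8 to 35.0 when 1 library was left out. D2 replicates 1 and 3 had only 7 and 11 reads at these ends. Cnot6 reads aligned over a median of 1014 nt in D0 libraries and 1642 nt in D6 libraries, and aligned length was not tested against the choice of end.

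**Figure D2:**
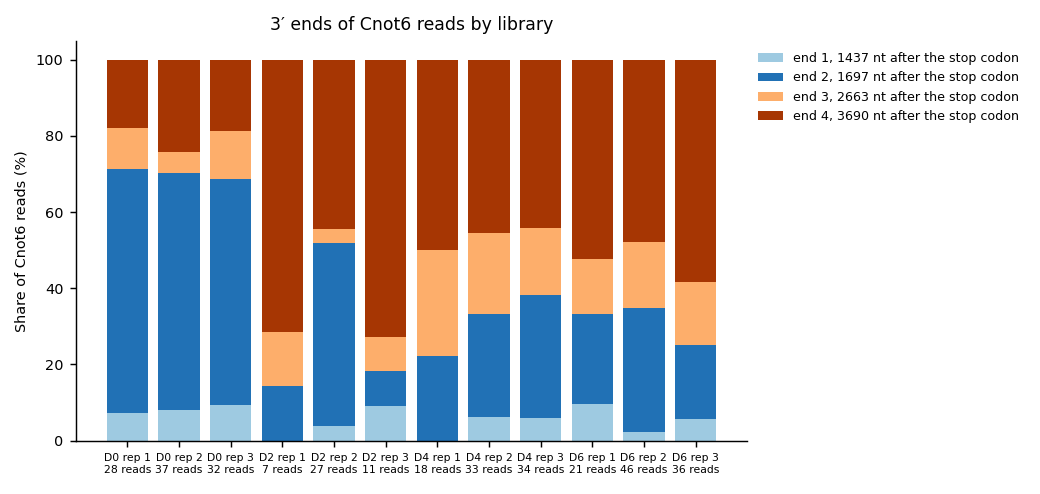
Share of Cnot6 reads (vertical axis, percent of the reads at the 4 ends) at each of 4 3′ ends, 1 bar per library with its number of reads below. The end 1697 nt after the stop codon holds 59.4% to 64.3% at D0 and at most 48.1% later, and the end 3690 nt after it holds 17.9% to 24.3% at D0 and at least 44.1% later.

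The end 2663 bases after the stop codon held 9.54% ± 3.69 at D0, 9.03% ± 5.29 at D2 (exact permutation p = 1.0), 22.2% ± 5.14 at D4 and 16.1% ± 1.63 at D6 (p = 0.1 each), and the end 1437 bases after it at most 9.52% in any library. Both main ends have the canonical hexamer (chr11:49673497-49673526 and chr11:49671503-49671532, minus strand).
Cnot6 middle end: aggaAATAAAattacatactgtttaaataa
Cnot6 last end: ccaaccAATAAAttcaatatctgtttcaaa

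Cnot7, the nuclease of the DEDD family that partners with CNOT6, rose. Its level was 76.9, 52.9 and 67.2 CPM at D0, 81.4, 81.5 and 88.1 at D2, 121, 99.3 and 120 at D4, and 117, 99.6 and 127 by D6. No library of a later day overlapped D0. Against D0 the level moved by 0.80 on the log2 scale (SE 0.21, adjusted p = 0.00243) at D4 and by 0.81 (SE 0.21, adjusted p = 0.00124) at D6, or 1.76 times the D0 level, and 0.41 (SE 0.26, adjusted p = 0.359) at D2. Both calls held without any single library. Among its reads of mapping quality 10 or more, 28.9% of the total, the log2 change was 1.94, 2.42 and 1.72 at D2, D4 and D6. In this subset D2 was called as well (adjusted p = 0.0186). Cnot7 reads aligned over a median of 812 nt before differentiation. In the later libraries the median was 1301 nt (D2), 1713 nt (D4) and 1560 nt (D6). Whether aligned length decides which Cnot7 reads reach this mapping quality, and so the size of these changes, was not tested. Most reads (337 of 391) ended at chr8 position 40492541, 1446 bases after the stop codon, and 28 belonged to a short non-coding transcript of the gene with its own end, whose share was at most 9.48% on average at any day and did not separate the days (exact permutation p of 0.4 or more).

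Cnot8, the close relative of Cnot7, had 89.0, 71.1 and 81.9 CPM at D0, 81.4, 65.2 and 83.0 at D2, 121, 94.6 and 80.6 at D4, and 99.7, 108 and 97.6 by D6. All libraries of D6 were above those of D0, yet the log2 change of 0.36 (SE 0.20, adjusted p = 0.156) was not called. It passed the threshold only with total reads as scaling. In the libraries of D0 there were 0.865, 0.744 and 0.821 Cnot7 reads for each Cnot8 read, and at D6 there were 1.18, 0.923 and 1.31. The mean ratio was 0.810 ± 0.0614 against 1.14 ± 0.195 (n = 3, exact permutation p = 0.1, adjusted p = 0.109 over 12 comparisons of ratios).

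Cnot8 reads ended at 2 places on chromosome 11 (plus strand), 259 and 1006 bases after the stop codon, with 138 and 238 reads. The nearer end, at position 58117847, held 39.1% ± 1.69 at D0, 51.7% ± 25.3 at D2, 38.0% ± 4.76 at D4 and 33.5% ± 20.1 by D6, and the days were not separated (exact permutation p of 0.7 or more). The 2 ends differed in tail length, as described below, and their last bases are shown for comparison (chr11:58117818-58117847 and chr11:58118565-58118594, plus strand).
Cnot8 nearer end: aacaaaccAGTAAAatgtctatgactctta
Cnot8 farther end: ttgtaaAATAAAgattgctttttaaccatt
The nearer end lacks AATAAA and ATTAAA in this window and holds AGTAAA, which 3.86% of the 12172 transcripts had before their most used end.

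Reads of both DEDD nucleases were also set against those of the scaffold, whose own level fell. There were 0.410, 0.250 and 0.340 Cnot7 reads per Cnot1 read in the libraries of D0, 0.769, 0.571 and 0.708 at D2, 1.21, 1.02 and 1.02 at D4, and 1.5, 0.873 and 1.24 at D6. The mean was 0.334 ± 0.0803 at D0 and 1.20 ± 0.315 at D6, without overlap (exact permutation p = 0.1, adjusted p = 0.109 over 12 comparisons). For Cnot8, whose level was not called, the ratio to Cnot1 was 0.409 ± 0.0693 at D0 and 1.06 ± 0.188 at D6 (p = 0.1, exact permutation test, adjusted p = 0.109). At D2 it was 0.631 ± 0.159 and overlapped D0 (exact permutation p = 0.2). None of the 12 comparisons of ratios passed the threshold after adjustment, which 3 against 3 libraries cannot reach. These are ratios of mRNA molecules, since protein was not measured.

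PAN2 is the nuclease and PAN3 the adaptor of the PAN2-PAN3 deadenylase, and both mRNAs were scarce. Pan2 had 84 reads and a level of 12.02 to 14.7 CPM at D0, 16.3 to 20.7 at D2, 20.8 to 32.2 at D4 and 17.8 to 27.1 by D6. It was called at D4 (log2 1.05, SE 0.40, adjusted p = 0.045), and not at D6 (0.64, SE 0.42, adjusted p = 0.228), though no library of either day overlapped D0. The D4 call was lost without D0 replicate 1, 2 or 3 or D4 replicate 2 or 3 (adjusted p from 0.076 to 0.151), and under 4 of the other alternatives. Pan3 had 22 reads in 9 libraries, 7 of them at D0 and 3 at D6, and none in D2 replicate 3, D4 replicate 1 or D6 replicate 3, where 0 reads allow up to 15.6, 12.5 and 8.13 CPM (3 reads, counting error only). No change in Pan3 was detectable at this depth.

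Parn had 28.9, 31.0 and 63.0 CPM at D0, 73.3, 77.4 and 25.9 at D2, 20.8, 30.8 and 32.2 at D4, and 32.0, 31.1 and 32.5 by D6. D0 replicate 3 was far above the other libraries of its day and D2 replicate 3 far below. The gene was not called, with log2 changes of 0.49 (SE 0.35) at D2, -0.39 (SE 0.35) at D4 and -0.25 (SE 0.33) at D6. When 1 library was left out these ranged from 0.16 (without D2 replicate 2) to 1.02 (without D2 replicate 3) at D2, from -0.57 to -0.04 at D4 and from -0.42 to 0.12 at D6. The values nearest to 0 at D4 and above 0 at D6 were those without D0 replicate 3. At D6 the sign also turned in libraries thinned to the smallest (0.53) and with total reads as the only scaling (0.0098), so that no direction is given. Its 160 reads came from 1 transcript, and 159 ended at its annotated end on chromosome 16.

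Btg1 showed the widest change among the 10 genes. Its level was 21.6, 21.9 and 27.3 CPM at D0, 57.0, 48.9 and 46.7 at D2, 100.03, 116 and 113 at D4, and 228, 170 and 157 by D6. Each day lay wholly above the day before it. On the log2 scale the rise was 1.10 (SE 0.36, adjusted p = 0.0345) at D2, 2.19 (SE 0.28, adjusted p = 4.46e-09) at D4 and 2.88 (SE 0.27, adjusted p = 6.91e-14) at D6, the last being 7.37 times the D0 level. The D2 call rested on 34 reads at D0 and 28 at D2 and was lost without D0 replicate 1 or 2 or without any 1 of the D2 replicates (adjusted p from 0.0593 to 0.0884). It was also lost without a filter on low counts (adjusted p = 0.0504), at barcode confidence 0.9 or more (0.092) and in libraries thinned to the smallest (log2 0.82, adjusted p = 0.484). Between D0 and D6 the summed neuronal and progenitor markers rose and the pluripotency markers fell, as given above, and the part of cell makeup in the rise was not tested.

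Nearly all Btg1 reads (380 of 388) ended at position 96619627 of chromosome 10 (plus strand), 984 bases after the stop codon and 3182 bases before the annotated end of the only transcript with reads. The end lies at base 1819 of an annotated 5001 nt, with the hexamer shown in capitals (chr10:96619594-96619623, plus strand, ending 4 bases before the most used end).
Btg1 end: ctatAATAAAttgtttcttatcttggcatt
Btg1 reads aligned over a median of 819 nt in D0 libraries and 1522 nt in D6 libraries, and all of them had a mapping quality of 10 or more.

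Tob1, the other antiproliferative factor listed, had 73 reads. Its level was 8.40 to 14.4 CPM at D0, 8.14 to 41.5 at D2, 16.7 to 25.3 at D4 and 10.7 to 29.8 by D6. No day was called (adjusted p of 0.316, 0.125 and 0.4 at D2, D4 and D6), though D4 did not overlap D0. The log2 changes were 0.91 (SE 0.54), 0.95 (SE 0.46) and 0.54 (SE 0.48). Single libraries moved them, to 0.43 at D2 without D2 replicate 3, and at D6 to 0.17 without D6 replicate 3 and 0.86 without D6 replicate 2.

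**Figure D3:**
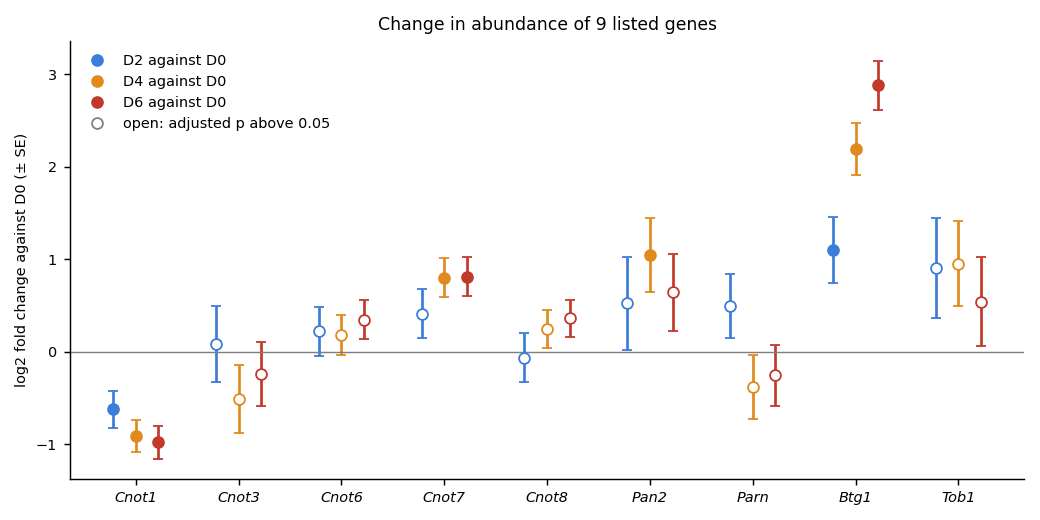
Log2 fold change in abundance against D0 (vertical axis) of the 9 genes tested, with SE bars, for D2, D4 and D6. Filled points passed an adjusted p of 0.05, and Btg1 reaches 2.88 at D6 while Cnot1 reaches -0.98.

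In the order of the mean levels Btg1 stood below 6 other genes at D0 and above all of them at D6, and Cnot1 above all others at D0 and below 3 at D6, while the means of Parn, Cnot3, Pan2, Tob1 and Pan3 stood in the same order at both days but not at D2 or D4. At D0 Cnot1 (199 ± 12.04 CPM) stood above all others without overlap, followed by Cnot8 (80.6 ± 8.99), Cnot6 (74.1 ± 6.67), Cnot7 (65.7 ± 12.1), Parn (40.9 ± 19.1), Cnot3 (27.5 ± 3.05), Btg1 (23.6 ± 3.20), Pan2 (13.2 ± 1.38), Tob1 (11.3 ± 3.03) and Pan3 (4.72 ± 2.05). Between neighbours in this order the libraries overlapped from Cnot8 down to Btg1 and between Pan2 and Tob1. At D6 Btg1 (185 ± 37.6) led without overlap, and Cnot7 (115 ± 14.1), Cnot8 (102 ± 5.44), Cnot1 (98.5 ± 18.3) and Cnot6 (92.2 ± 15.1) came next, with overlap between neighbours among these 4 genes. Without overlap below Cnot6, Parn (31.9 ± 0.715), Cnot3 (23.1 ± 1.64), Pan2 (21.2 ± 5.14), Tob1 (17.6 ± 10.6) and Pan3 (2.57 ± 2.25) followed, with overlap between Cnot3 and Pan2 and between Pan2 and Tob1.

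The tails of these mRNAs were themselves measured on the same molecules. Over all libraries the median tail of a gene ran from 105 nt (Parn) to 130 nt (Cnot6) among the 9 genes with more than 30 reads, beside a median of 111 nt over the 6667 genes tested for tail length. Pan3, with 22 reads, had 187 nt. Tails under 30 nt made up 0.515% (Btg1) to 4.38% (Parn) of reads in the 9 genes. Tail length was tested with limma on the mean log2(tail + 1 nt) per gene and library, weighted by reads.

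Of the 9 genes tested, 1 was called longer at D6 and none shorter, against 3.66% of all genes (1.68% longer and 1.98% shorter). None was called at D2, where 1.26% of all genes were (0.06% higher and 1.2% lower), or at D4, where 2.19% were (0.15% higher and 2.04% lower), and of the 9 genes none had an unadjusted p under 0.05 at either day by limma. The median difference of the 9 genes was 0.13 at D6, beside 0.08 over all genes tested, 65.8% of which were above 0. The gene called was Cnot7, whose median tail was 100.2, 114 and 100.3 nt in the libraries of D0, 111, 106 and 158 at D2, 113, 109 and 131 at D4, and 126, 158 and 148 at D6. All libraries of D6 lay above D0, a log2 difference of 0.42 (SE 0.12, adjusted p = 0.0258) or 1.34-fold. The call was lost without D0 replicate 1 or 3 or D6 replicate 2 or 3 (adjusted p from 0.0959 to 0.164). It was also lost when tails were taken relative to each library's median gene (0.33, adjusted p = 0.0901), without weights (0.39, adjusted p = 0.239), on medians (0.45, adjusted p = 0.32), at mapping quality 10 or more (0.78, adjusted p = 0.131) and at barcode confidence 0.9 or more (0.35, adjusted p = 0.111), so that the log2 difference stayed above 0 in each.

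Cnot6 was next, with a median tail of 112, 108 and 124 nt before differentiation, 148, 140 and 141 nt at D6, and no overlap (log2 0.36, SE 0.11, adjusted p = 0.0555). Btg1 had 113, 105 and 87.8 nt at D0 and 125, 148 and 116 nt at D6, again without overlap (0.33, SE 0.15, adjusted p = 0.24). Cnot1 changed by 0.13 (SE 0.09, adjusted p = 0.544), with medians of 111, 113 and 116 nt at D0 and 98.9, 139 and 136 nt at D6, so that D6 replicate 1 stood below all libraries of D0. Cnot8 had 121, 96.0 and 153 nt at D0 and 113, 115 and 133 nt at D6 (0.05, SE 0.12). Leaving out 1 library gave -0.13 to 0.17 for Cnot8, so that its sign was not settled either. Parn had 85.5, 98.6 and 85.5 nt at D0 and 121, 149 and 81.2 nt at D6 (0.33, SE 0.20, adjusted p = 0.423), and the difference was 0.03 without D6 replicate 2. For Cnot3, Pan2 and Tob1 the log2 differences at D6 were 0.10, -0.00 and -0.09, with SE between 0.22 and 0.29. None of these 3 had a settled sign, since leaving out 1 library gave -0.07 (without D0 replicate 3) to 0.30 (without D0 replicate 2) for Cnot3, -0.07 to 0.07 for Pan2 and -0.45 (without D0 replicate 1) to 0.09 (without D0 replicate 2) for Tob1.

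**Figure D4:**
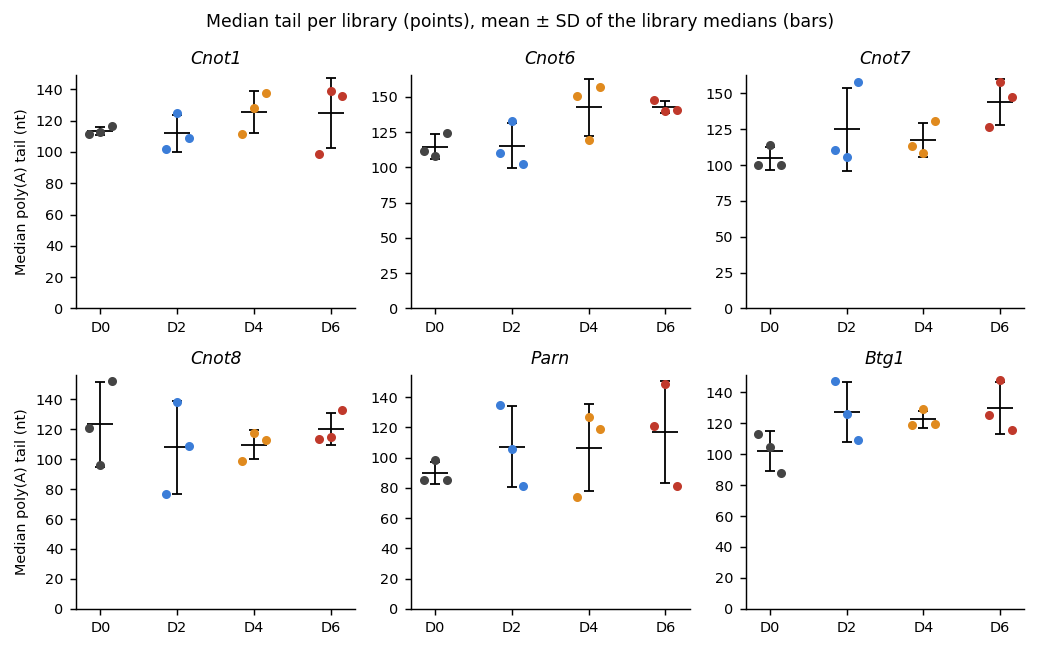
Median poly(A) tail (nt, vertical axis from 0) per library and day for the 6 genes with at least 120 reads. Points are libraries and bars the mean ± SD of 3 library medians. Cnot6, Cnot7 and Btg1 have all 3 libraries of D6 above those of D0.

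Within a library, tails were compared between the ends of the 2 genes that had at least 100 reads at each of 2 ends. Cnot8 molecules cut at the nearer end had shorter tails than those cut at the farther end in 11 of 12 libraries, the exception being D4 replicate 2. The medians over all reads were 95.9 and 130 nt, and the mean within-library difference was -0.36 on the log2 scale (SD 0.36, n = 12, two-sided exact sign-flip permutation p = 0.00684, adjusted p = 0.0137 over 2 genes). By day the medians at the nearer and farther end were 99.5 and 134 nt at D0, 81.4 and 125 at D2, 98.6 and 122 at D4, and 96.7 and 131 by D6. The difference stayed past the threshold without any single library (p from 0.000977 to 0.0137, exact permutation test).

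For Cnot6 the middle end had shorter tails than the last end in 10 of 12 libraries (medians of 109 and 139 nt, mean log2 difference -0.25, SD 0.36, n = 12, exact sign-flip permutation p = 0.0386, also after adjustment). By day the medians at the middle and last end were 108 and 111 nt at D0, 135 and 111 at D2, 118 and 148 at D4, and 108 and 165 by D6, so that the last end had the longer pooled median at D0, D4 and D6 and the shorter at D2. Each library counted equally, though D2 replicates 1 and 3 had 1 read each at the middle end. The p rose above 0.05 without D0 replicate 2 or 3, D2 replicate 3, D4 replicate 1 or 3 or D6 replicate 1, 2 or 3 (0.0518 to 0.0771, exact permutation test).

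**Figure D5:**
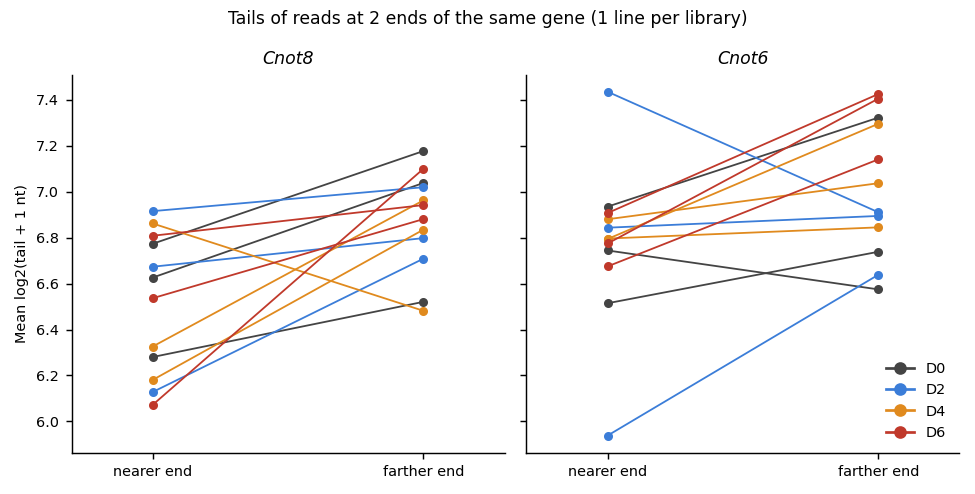
Mean log2(tail + 1 nt) of reads at the nearer and the farther of 2 ends of Cnot8 (left) and of Cnot6 (right, the middle and last end), 1 line per library coloured by day. Lines rise to the farther end in 11 of 12 libraries for Cnot8 and in 10 of 12 for Cnot6.

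Around these 10 genes, 82 other genes of tail metabolism were listed, of which 81 had reads and 66 were tested for abundance. At D6 there were 13 higher, 9 lower and 44 not called, where 19% of all genes tested were higher and 18.8% lower. The calls at D4 were 6 higher and 6 lower (12.9% and 12.5% of all genes), and at D2 none higher and 2 lower (4.69% and 6.11%). The counts of the groups below are all for D6, stand against those same shares of 19% and 18.8%, and come with the group's median log2 change, the median over all genes being 0. None of the 7 other CCR4-NOT subunits was called (median 0.10). Among poly(A)-binding proteins and their partners, 2 of 7 rose and 2 fell (median -0.56). Pabpc1, the main cytoplasmic poly(A)-binding protein, fell from 1088 ± 48.6 to 509 ± 12.5 CPM (log2 -1.09, adjusted p = 2.91e-13), and Pabpc4 from 246 ± 38.8 to 111 ± 11.2 CPM (-1.12, adjusted p = 2.97e-07). Paip1 and Paip2, which bind poly(A)-binding protein, rose by 1.20 (adjusted p = 9.59e-06) and 0.49 (adjusted p = 0.00546).

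Of 3 other BTG/TOB genes tested (median 0.07), Btg2 was higher at D6 (log2 2.16, adjusted p = 4.2e-08) and Btg3 lower (-1.55, adjusted p = 1.04e-05), both named here after their values were seen because the group is small. Among other deadenylases 2 of 5 were called higher and none lower (median 0.43), namely Angel2 (0.98, adjusted p = 0.0169, named for the same reason) and Noct (0.43, adjusted p = 8.36e-05). The Noct value is uncertain, since 99.2% of its reads lay on 1 transcript, ended near base 4916 of 9797 and mostly had a low mapping quality (41.5% at 10 or more). Whether these reads came from Noct or from another locus was not tested, and the median of the group is Noct's own value. Of 8 poly(A) polymerases and related transferases tested, 1 was called (median 0.20), Tut7 (0.92, adjusted p = 0.0473, named after its value was seen).

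Of 16 adaptors that recruit deadenylases, 5 rose and 2 fell (median -0.05). With enough reads to be named by the rule, Zfp36l1, which binds AU-rich elements, rose by 0.65 (adjusted p = 0.0191), Ago1, a microRNA-binding Argonaute, by 1.09 (adjusted p = 0.000165) and Ythdf2, a reader of m6A, by 0.59 (adjusted p = 0.0226). Their relatives did not all share that direction, since Zfp36l2 (log2 -1.98, adjusted p = 0.00689) and Ago2 (-0.77, adjusted p = 0.0484) were the 2 that fell. Cpeb4 (1.25, adjusted p = 0.0181) and Tnrc6c (1.05, adjusted p = 0.00589) were the others that rose, and these 4, with fewer reads, were named after their values were seen. Of 20 decapping and decay genes, 2 rose and 4 fell (median -0.10). Lsm2, Lsm3 and Lsm4, which belong to the ring that binds oligoadenylated ends and also to the spliceosomal ring, fell by 0.58, 0.59 and 0.65, Dcps, the scavenger decapping enzyme, fell by 0.57, and Lsm14b, an RNA-binding protein of P-bodies, rose by 1.08 (adjusted p of 0.0351 or less). The other gene of this group that rose was Dcp1b, a decapping cofactor with few reads (1.43, adjusted p = 0.0224), named after its value was seen. The other 4 genes of these rings on the list were not called, with log2 changes of 0.25 for Lsm1, -0.37 for Lsm5, 0.08 for Lsm6 and -0.27 for Lsm7. In tail length 52 of the related genes were tested, and Pabpc1 alone of the 52 was called at D6, shorter by 0.21 on the log2 scale (adjusted p = 0.00529), where 1.98% of all genes tested were called shorter.

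The genes most like each member in level over the 12 libraries are given as a description, by Pearson's r of log2(CPM + 1) among 2795 other genes with a mean of at least 20 reads, all libraries sharing their days. Hspa4 (0.97), Mthfd1 (0.96) and Eef2 (0.95) were most like Cnot1. Cd24a (0.99), Ina (0.99) and Hoxb9 (0.99) were most like Btg1. Clic1 (0.93), Gadd45g (0.92) and Jund (0.92) were most like Cnot7, Cbx2 (0.90), Maged2 (0.88) and Dbn1 (0.84) were most like Cnot8, and Tmbim6 (0.85), Smarca4 (0.82) and Srrm2 (0.81) were most like Cnot6.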

How the data were processed

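Native RNA of P19 cells was sequenced on nanopores, with 3 barcoded replicates per day. Bases were called by the authors in Guppy and the reads placed by Minimap2 (2.20 in the submitters' processing notes) on mouse transcripts of the mm10 build, while Nanopolish gave the tails and Deeplexicon the barcodes. Their deposited table has 1 line per alignment, with tail lengths in nucleotides that were not normalized, a mapping quality that the authors took from the aligner as a score, and the authors' barcode confidence as a fraction. A second deposited table, with log2 fold changes and p-values from the authors' DESeq2 fit, was not used.

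Of 6306434 lines, 69 were malformed and 289260 had no barcode. Reads tagged PASS on nuclear mRNA-class transcripts other than pseudogenes were tallied here per gene. Genes with at least 30 reads were fitted with limma-voom (limma 3.58.1, R 4.3.3) over all 12 libraries, scaled by trimmed means of M-values, with a pseudocount of 0.5 reads. Counts were tallied here from reads, and no other count model was run. Tails were fitted with limma in genes with at least 1 read in every library and a mean of at least 5. Ends within 20 nt were joined, and those with at least 10 reads were kept. For single values, exact permutation tests (two-sided) were used. The 32 transcripts of the listed genes were matched by identifier to GENCODE vM21, all with the same coordinates, and sequences were read from it. The CPM limits given for Pan3 cover counting error only, while SE and SD values include the spread between libraries.

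The members and the lists were chosen with earlier results of these data known, and the analysis of 3′ ends was added after the data were seen. All listed genes were named, with values per library from 120 reads on. Related genes were named if called at D6 with a mean of at least 20 reads. Both fits were tested on simulated data at this depth, with changes put only into genes with a mean of at least 10 reads. Cnot3, Pan2, Pan3 and Tob1 lay below that mean, and the outcome is not given here. Alternatives were other scalings, filters, weights, mapping quality, transcript classes, tail tags, barcode confidence, equal depth, a replicate block and leaving out each library. Python 3.11.15, numpy 2.4.6, pandas 2.3.3, scipy 1.17.1 and matplotlib 3.10.9 were used.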

Additional observations from a re-analysis of the deposited data

How the results depend on the processing

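Directions of the 9 tested genes were kept in every alternative wherever a call was made, and of 624 single-gene abundance comparisons 591 kept their side of the threshold, 30 lost a call and 3 gained one (tails: 532, 9 and 5 of 546). The calls of Cnot1, Cnot7 and Btg1 at D6 held without any single library. The number of the 9 genes called for abundance at D2 was 2. It was 1 with median-of-ratios scaling, total reads only or protein-coding transcripts only (added after the data were seen), Cnot1 being lost, and 1 with no filter on low counts, libraries thinned to the smallest or barcode confidence of at least 0.9, Btg1 being lost, and it ranged from 0 to 2 when 1 library was left out. At D4 it was 4, and 2 at a mapping quality of at least 10, where too few Cnot1 and Pan2 reads were left, and 3 under 6 other alternatives, each without Pan2 (leaving out libraries gave 3 to 4). At D6 it was 3, and 5 with total reads only, which added Cnot6 and Cnot8, and 2 at a mapping quality of at least 10, where Cnot1 was left out. Scaling by total reads raised the share of higher calls over all genes from 50.2% to 69.0% (from 43.4% to 65.9% at D2 and from 50.7% to 62.5% at D4). The mean-trend fit gave 33.6% higher calls at D2. For tails at D6 the number called was 1, and 0 on medians, without weights, at a mapping quality of at least 10, at barcode confidence of at least 0.9 or relative to the library's median, 2 with a mean of at least 10 reads, and 0 to 2 when 1 library was left out. With the replicate number as a block (replicate block) the counts for abundance were 2, 3 and 3 at D2, D4 and D6, Pan2 at D4 being lost (adjusted p = 0.0542), and for tails 0, 0 and 2, Cnot6 at D6 being gained (adjusted p = 0.0444). Only 4 of 18 correlations between same-numbered libraries exceeded 0.1 (range -0.13 to 0.17). Libraries with different numbers were not correlated, so whether the replicate numbers pair the libraries was not settled. The log2 tail difference between the Cnot6 ends ranged from -0.32 to -0.21 when 1 library was left out. Over all genes, calls for abundance at D2, D4 and D6 fell from 1006, 2364 and 3516 to 334, 682 and 1223 in thinned libraries, to 569 at D2 and 2179 at D6 with mapping quality of at least 10 and to 2334 at D6 with at least 120 reads, rose to 1615 at D2 without a filter and were 655 at D2 without D2 replicate 2. Calls for tails at D6 went from 244 to 112 on medians, 120 without weights and 157 without D6 replicate 2, and at D2 from 84 to 32 relative to the library's median, 27 without D2 replicate 2 and 48 without D2 replicate 3. The causes were not tested. Depth limits Pan3, Tob1, Pan2 and Cnot3 most, and Pan3 was below the minimum of the reported fit.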
